A study of Arabidopsis thaliana with 6 samples.

Results

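A set of 10 WRKY transcription factor genes were followed in seedling roots of Arabidopsis thaliana after a short exposure to auxin. They are WRKY6, WRKY15, WRKY23, WRKY27, WRKY30, WRKY31 and WRKY51, described as auxin-raised, and WRKY33, WRKY40 and WRKY53, described as stress types. The genes were picked by locus from the raw count table, 10 of its 32833 genes, and the pick was made with their difference between IAA and mock already known. That difference, and each count of calls among them, is therefore given as a description, and nothing rests on it.

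Roots came from wild type Col-0 seedlings 3 days after germination. Both groups spent 1 h in liquid medium of the Murashige and Skoog type, one with 1 µM of the auxin IAA (indole-3-acetic acid) and the other with none (mock). Each group had 3 libraries of ribodepleted RNA, each from about 100 pooled roots, and the labels do not say whether the pools were grown and treated separately, so p-values measure only the spread between these libraries. The question behind the series is which genes link auxin and ethylene responses.

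WRKY proteins are a plant family of transcription factors that bind W boxes, short DNA elements with the core TTGAC, through a domain named after its invariant amino acids. Most are known from immunity, senescence, wounding and nutrient stress, and several act on the promoters of other WRKY genes or on their own. WRKY23 has a known place in auxin responses, downstream of the auxin response factors ARF7 and ARF19 and the repressor IAA14, and in flavonol synthesis of the root.

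The DNA that codes for the signature heptapeptide of the domain is shown first, since it defines the family and separates one of the genes from the others. The sequences are 21 bases long, read 5′ to 3′ on the coding strand of the RefSeq TAIR10.1 genome, and capitals mark the sixth codon.
WRKY23: tggcgaaaatatggtCAAaaa
WRKY40: tggaggaaatatggaCAGaaa
WRKY33, first domain: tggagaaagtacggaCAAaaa
WRKY33, second domain: tggagaaaatacggcCAGaaa
WRKY51: tggaggaagtatggcAAGaaa
In 9 of the 10 genes the sixth codon was CAA or CAG, both of which specify glutamine, and in WRKY51 it was AAG, which specifies lysine. WRKY33 was the 1 gene with 2 copies of the signature, as is typical of group I of the family. The other genes belong to group IIa (WRKY40), IIb (WRKY6, WRKY31), IIc (WRKY23, WRKY51), IId (WRKY15), IIe (WRKY27) and III (WRKY30, WRKY53), so the 10 genes cover every main group.

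The windows of 300 bases before the annotated gene start were searched on both strands for the W box forms TTGACC and TTGACT and for the auxin response elements TGTCTC and TGTCGG. The windows of WRKY33, WRKY30 and WRKY23 are printed because they show the range found, from 4 matches to none, and capitals mark matches on either strand.
WRKY33, chr2:16107935-16108234, plus strand: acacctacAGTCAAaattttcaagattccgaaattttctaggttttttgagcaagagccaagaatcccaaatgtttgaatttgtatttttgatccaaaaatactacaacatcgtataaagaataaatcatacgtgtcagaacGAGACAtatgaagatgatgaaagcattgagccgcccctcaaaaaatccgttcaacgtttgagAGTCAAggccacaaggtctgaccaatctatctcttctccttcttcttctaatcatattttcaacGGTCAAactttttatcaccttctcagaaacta
WRKY30, chr5:8154711-8155010, minus strand: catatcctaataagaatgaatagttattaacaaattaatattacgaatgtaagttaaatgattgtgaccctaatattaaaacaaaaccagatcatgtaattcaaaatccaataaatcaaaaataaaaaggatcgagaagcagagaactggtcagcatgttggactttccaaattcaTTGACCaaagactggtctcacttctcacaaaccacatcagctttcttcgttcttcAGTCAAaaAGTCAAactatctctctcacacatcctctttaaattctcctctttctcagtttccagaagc
WRKY23, chr2:19407099-19407398, minus strand: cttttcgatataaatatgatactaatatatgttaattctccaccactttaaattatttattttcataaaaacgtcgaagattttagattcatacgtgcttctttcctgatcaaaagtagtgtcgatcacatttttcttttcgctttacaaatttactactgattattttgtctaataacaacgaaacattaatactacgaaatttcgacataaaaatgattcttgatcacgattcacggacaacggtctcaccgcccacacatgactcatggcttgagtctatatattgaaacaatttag
The WRKY33 window held 3 W boxes, at -292, -96 and -32 from the gene start, and 1 auxin response element at -158, all in the reverse orientation. The WRKY30 window held 3 W boxes, at -124, -69 and -61. The WRKY23 window held none of the 4 sequences. A W box of either form was in 4 of the 10 windows (WRKY15, WRKY30, WRKY33 and WRKY53), against 32.3% of 27443 windows of all protein-coding genes and 41.9% of the windows of the other 62 WRKY genes. An auxin response element of either form was in 3 of the 10, WRKY33, WRKY40 and WRKY53, against 17.3% of all windows. A match describes letters and not a working site, and no match says only that these letters are not in this window.

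Library totals lay between 20808439 and 20984444 counts. The labels held on the auxin side. GH3.3, an early auxin gene that encodes an IAA-conjugating enzyme, went from 5.25 ± 1.05 to 985 ± 66.8 CPM (counts per 1000000 counts of the scaled library total, SD, n = 3 per group), and 8 of 9 auxin control genes rose. All 10 root cell type markers were detected, at 619 to 732 CPM summed per library, and seed storage markers reached at most 0.0962 CPM summed. All 9 shoot and photosynthesis markers were also detected, at 0.19%, 0.023% and 0.278% of counts in mock 1 to 3 and at 0.0216%, 0.1% and 0.0247% in IAA 1 to 3. Mock 1, mock 3 and IAA 2 were thus the libraries with most of these transcripts.

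Across all genes, 3.24% of 19778 tested were called higher with IAA and 0.991% lower, 4.23% in all, at an adjusted p under 0.05 (quasi-likelihood test of edgeR with Benjamini-Hochberg adjustment). Of the 10 WRKY genes 7 were among those called higher and 0 among those called lower, counts that the way the genes were picked fixes in part and that are no test of them. The count of 7 became 2 with the replicate number as a block, 3 with a term for the shoot markers, 1 without mock 1, 2 without mock 2, mock 3 or IAA 2, 5 without IAA 3 and 8 without IAA 1. It was 5 with limma-voom or with library totals, and 8 with DESeq2, where WRKY33 was also called. In 8 of the 10 every IAA library lay above every mock library, as did 12.3% of all tested genes, and in 0 of the 10 did every IAA library lie below, as did 9.83% of all tested genes. The median log2 change was 1.05 over the 10 genes and -0.01 over all tested genes. In RNA from whole roots, more cells of a type with the transcript and more transcript per cell cannot be told apart.

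**Figure D1:**
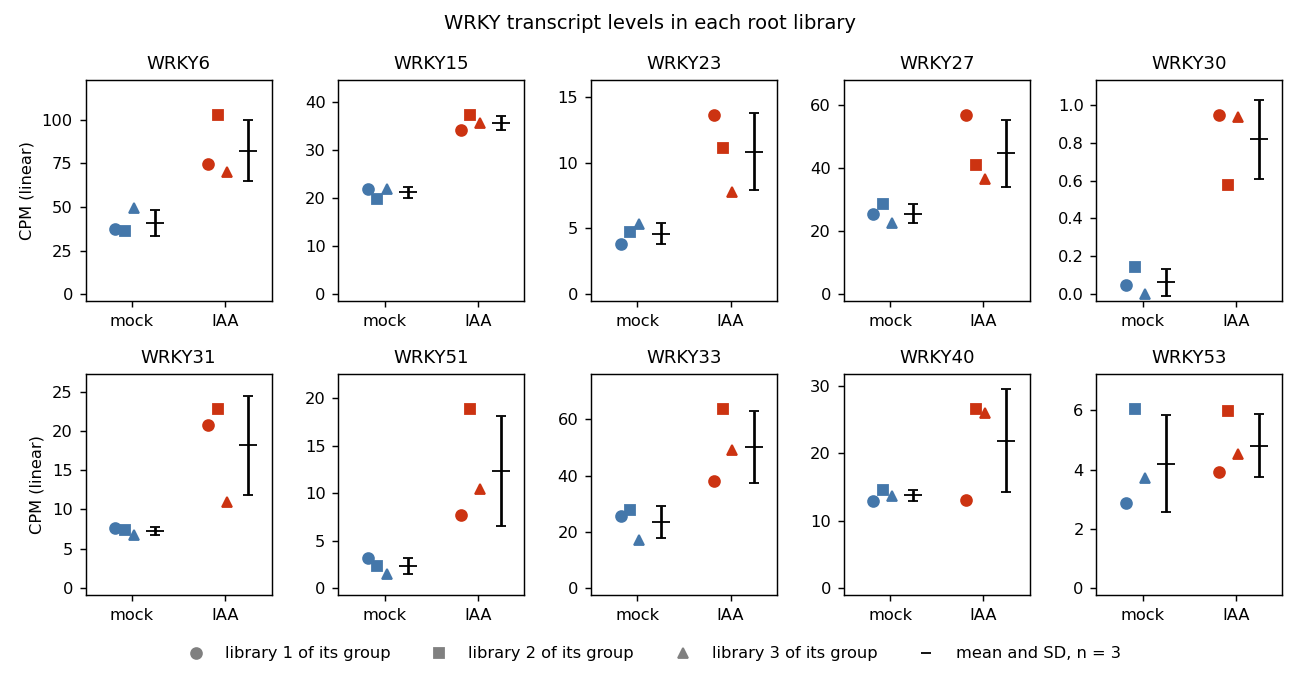
Transcript level in CPM (linear axis, its own scale for each gene) of the 10 WRKY genes in each mock (blue) and IAA (red) library, with the mean and SD of each group (n = 3). IAA points lie above all mock points for 8 genes, while the groups overlap for WRKY40 and WRKY53.

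WRKY23 (AT2G47260, chr2:19404802-19407098 in TAIR10.1) had 3.80, 4.72 and 5.34 CPM in the mock libraries and 13.6, 11.2 and 7.77 CPM in the IAA libraries. The groups did not overlap, and IAA 3 was the library nearest to mock. The fitted log2 change was 1.23 (SE 0.24), or 2.35-fold.

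WRKY6 and WRKY31 share group IIb. WRKY6 (AT1G62300, chr1:23016569-23019494), a factor of senescence and defence that also represses the phosphate exporter gene PHO1, had 37.1, 36.2 and 49.6 CPM in mock and 74.4, 102 and 69.9 CPM with IAA. Its log2 change was 1.00 (SE 0.19), and IAA 2 stood highest. WRKY31 (AT4G22070, chr4:11691172-11694590) had 7.69, 7.41 and 6.73 CPM in mock and 20.7, 22.7 and 10.96 CPM with IAA. Its mock libraries were close together, and IAA 3 lay nearer to them than to the other IAA libraries. The log2 change of WRKY31 was 1.32 (SE 0.27). WRKY42, the nearest relative of this pair in the group, had 0.0473 ± 0.0469 CPM in mock and 0.433 ± 0.123 CPM with IAA (SD, n = 3), from 3 and 27 counts in all, and was left untested by the low-count filter. It is named after its values were seen.

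WRKY15 (AT2G23320, chr2:9924886-9926372), a regulator of leaf growth and osmotic stress responses, was the steadiest of the 10. It had 21.9, 19.8 and 21.8 CPM in mock and 34.1, 37.2 and 35.5 CPM with IAA, with a log2 change of 0.75 (SE 0.10). The coefficient of variation between libraries was 5.72% in mock and 4.32% with IAA, below every other gene of the 10 in both groups. WRKY27 (AT5G52830, chr5:21410769-21412526), known for its part in the bacterial wilt disease, had 25.4, 28.4 and 22.7 CPM in mock and 56.6, 40.9 and 36.4 CPM with IAA. IAA 1 was the highest library, and the log2 change was 0.81 (SE 0.18).

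WRKY51 (AT5G64810, chr5:25908247-25909881), the gene with the lysine codon and known with WRKY50 for repressing jasmonate responses, had 3.14, 2.36 and 1.44 CPM in mock. With IAA it had 7.70, 18.8 and 10.5 CPM, a log2 change of 2.41 (SE 0.41) or 5.31-fold. The groups did not overlap, but the IAA libraries spanned a wide range, with IAA 2 highest. WRKY50, its closest relative in function, was at 1.61 ± 0.117 CPM in mock and 1.57 ± 0.456 CPM with IAA (SD, n = 3), a log2 difference of -0.04 (SE 0.29, not called, named after its values were seen).

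WRKY30 (AT5G24110, chr5:8153115-8154710), a gene induced early by oxidative stress and pathogens, was the rarest of the 10. It had 1, 3 and 0 counts in the mock libraries and 20, 12 and 19 counts in the IAA libraries. The 4 mock counts against 51 IAA counts gave a fitted log2 change of 3.58 (SE 0.69), and this size rests on very few mock reads. WRKY30 passed the low-count filter only through the IAA libraries, where it was high, so its call is no support for a change. Without mock 2, which held 3 of the 4, the fitted log2 change was 4.81, and without mock 3 it was 3.04.

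The stress types differed among themselves. WRKY33 (AT2G38470, chr2:16108235-16110766), which is phosphorylated by the kinases MPK3 and MPK6 and switches on camalexin synthesis, had 25.6, 27.6 and 17.1 CPM in mock and 38.1, 63.6 and 49.1 CPM with IAA. All IAA libraries lay above all mock libraries, and the log2 change was 1.1 (SE 0.24), a size in the range of the genes described as auxin-raised.

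WRKY40 (AT1G80840, chr1:30383561-30385499), a repressor of early immune genes together with WRKY18 and WRKY60, had 12.9, 14.6 and 13.7 CPM in mock and 13.1, 26.6 and 26.1 CPM with IAA. IAA 1 lay within the mock range and the other IAA libraries lay well above it. The log2 change was 0.67 (SE 0.26), and it was 0.94 without IAA 1.

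WRKY53 (AT4G23810, chr4:12392370-12393982), a factor that promotes leaf senescence, had 2.86, 6.04 and 3.70 CPM in mock and 3.92, 5.99 and 4.52 CPM with IAA. The groups overlapped throughout, with mock 2 the highest library of all, and the log2 change was 0.20 (SE 0.30). Its sign turned without mock 1 (log2 change -0.019). WRKY53 overlaps the gene 3xHMG-box2 on the opposite strand by 341 bases, and that gene had 63.7 to 94.5 CPM, so without a known strand setting some WRKY53 counts could belong to it. WRKY33 and WRKY40 overlap opposite-strand genes that reached at most 7.96 CPM, over 26 to 272 bases, and the other 7 genes overlap no annotated gene.

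Levels of different genes were compared per kilobase of exon (CPM divided by exon length, RPKM). In mock roots WRKY6, WRKY15 and WRKY27 were the most abundant of the 10, at 17.7 ± 3.23, 16.5 ± 0.943 and 16.1 ± 1.83 RPKM (SD, n = 3), and their replicate ranges overlapped. WRKY33 followed at 11.6 ± 2.76 and WRKY40 at 10.4 ± 0.619 RPKM, again with overlapping ranges. WRKY31, WRKY53, WRKY51 and WRKY23 formed a lower step, from 3.33 to 2.42 RPKM, in which each range overlapped that of the next gene. WRKY30 was last at 0.0487 RPKM, apart from all the others. With IAA the order was WRKY6 (35.5 RPKM), WRKY27, WRKY15, WRKY33, WRKY40, WRKY51 (13.0), WRKY31, WRKY23, WRKY53 and WRKY30 (0.635), and neighbours overlapped except for WRKY23 over WRKY53 and WRKY53 over WRKY30. Among all 72 WRKY genes, WRKY51 stood in place 42 in mock and place 22 with IAA, the longest move up among the 10, while WRKY53 stood in place 41 and place 44.

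The libraries of one group did not rank the genes alike. IAA 2 was the highest IAA library for 7 of the 10 genes (WRKY6, WRKY15, WRKY31, WRKY51, WRKY33, WRKY40 and WRKY53). IAA 1 was the highest for the other 3, WRKY23, WRKY27 and WRKY30, and was the lowest for WRKY15, WRKY51, WRKY33, WRKY40 and WRKY53. All 3 stress types, WRKY51 and WRKY15 thus had their lowest IAA value in IAA 1 and their highest in IAA 2, with little difference between the libraries for WRKY15. In the log2(CPM + 0.5) values, WRKY51 was 0.55 below its group mean in IAA 1 and 0.69 above it in IAA 2, and WRKY40 was 0.65 below and 0.34 above. IAA 2 also carried more shoot marker transcripts than the other IAA libraries (0.1% of counts against 0.0216% and 0.0247%), and their part in these values was not tested.

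**Figure D2:**
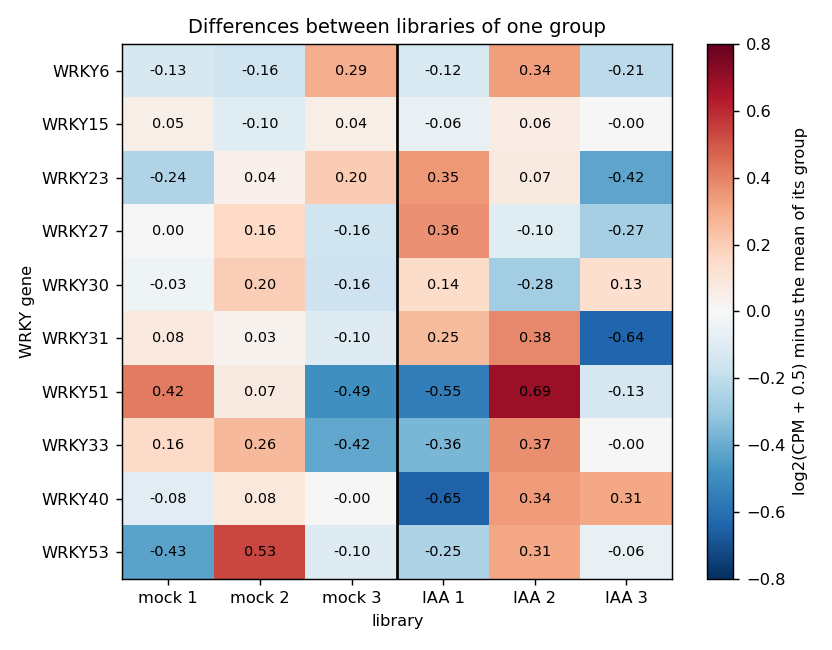
Difference of each library from the mean of its own group, in log2(CPM + 0.5), for the 10 WRKY genes (rows) and the 6 libraries (columns, mock left of the line and IAA right of it). WRKY6, WRKY15, WRKY51, WRKY33, WRKY40 and WRKY53 are below their group mean in IAA 1 and above it in IAA 2, by least for WRKY15, while WRKY23 and WRKY27 are highest in IAA 1.

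Split by shoot markers, the libraries with little of them were mock 2, IAA 1 and IAA 3, and those with more were mock 1, mock 3 and IAA 2. The difference between IAA and mock in log2(CPM + 0.5) was 0.64 for WRKY33 among the former and 1.58 among the latter. It was 0.34 and 0.97 for WRKY40, 1.73 and 2.86 for WRKY51 and 0.98 and 1.60 for WRKY31. WRKY53 changed sign between them, from -0.47 to 0.79. WRKY15 had 0.80 and 0.75, WRKY23 1.05 and 1.22, WRKY27 0.67 and 0.76, WRKY6 0.98 and 1.25 and WRKY30 1.17 and 1.05. WRKY30 averaged 0.063 CPM in mock and 0.82 CPM with IAA, so the added 0.5 shrinks its differences. They are not comparable with its fitted log2 change of 3.58 or with the other genes. Each comparison within the split holds 3 libraries, 1 of them alone in its group, so no test was made within the split.

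The rest of the family gives the background for these values. Of the other 62 WRKY genes 47 were tested, and edgeR called 0 of them in either direction. At an unadjusted p under 0.05 in edgeR there were 10 with a higher and 2 with a lower level. The share of all genes at this unadjusted threshold was not computed, so these counts cannot decide whether the family rose. The 10 include WRKY63, which passed the low-count filter only through the IAA libraries, where it was high. DESeq2 called 4 higher (WRKY2, WRKY39, WRKY48 and WRKY52) and limma-voom 0. Their median log2 change was 0.10. The 10 selected genes together made up 9.33%, 9.62% and 10.7% of the CPM of all WRKY genes in mock 1 to 3 and 14.3%, 19.1% and 16.6% in IAA 1 to 3, a description that follows from how they were picked. The 3 genes with the highest mean CPM among those edgeR did not call, with no regard to length, were WRKY65 (203 ± 25.7 CPM in mock, 201 ± 25.4 with IAA), WRKY17 (94.8 ± 7.87 and 100.2 ± 28.5 CPM) and WRKY39 (86.7 ± 3.81 and 115 ± 7.46 CPM; SD, n = 3). By family group, the median log2 change of the genes outside the 10 lay between 0.05 in group IIc and 0.16 in group IIa for all groups except III. The group IIa value comes from 2 tested genes of opposite sign, WRKY18 (0.46) and WRKY60 (-0.14). In group III, where 6 of 12 such genes were tested, it was 0.52. These 6 ran from -0.61 for WRKY54 (SE 0.58) to 1.80 for WRKY70 (SE 0.76). They include WRKY63 (1.59), which passed the low-count filter only through the IAA libraries, so this median rests in part on the filter.

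**Figure D3:**
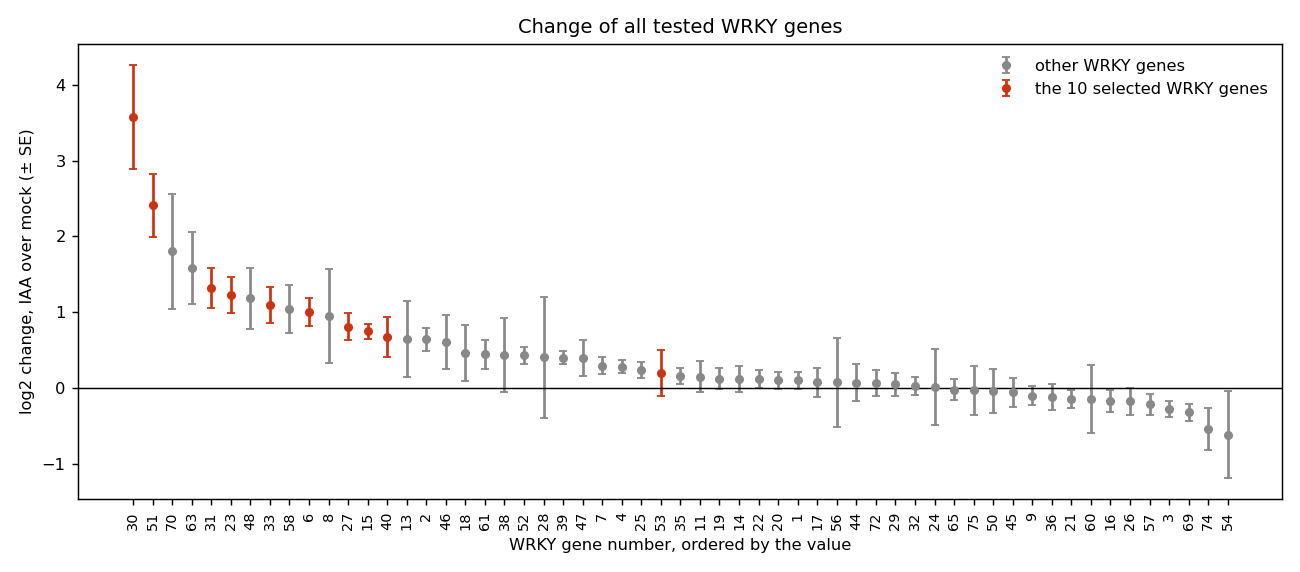
Fitted log2 change (IAA over mock, bars ± SE) of the 57 tested WRKY genes, ordered by value, with the 10 selected genes in red and the other 47 in grey. WRKY70 and WRKY63, outside the 10, have larger estimates than most of the red genes but wide errors. WRKY63 had 4, 9 and 7 counts in mock 1 to 3 and 23, 26 and 11 in IAA 1 to 3. It passed the low-count filter only through the IAA libraries, so its estimate is no support for a change.

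Several of these genes varied between the IAA libraries as the selected genes did, and the following were chosen after their values were seen. WRKY70, a salicylic acid response factor of group III, had 4.97, 3.68 and 5.19 CPM in mock and 3.54, 32.6 and 12.2 CPM with IAA, the same order of IAA libraries as WRKY51 and WRKY33. WRKY54, its close relative, had 2.17, 13.7 and 7.87 CPM with IAA, in that order too, but 10.7 to 14.6 CPM in mock. WRKY48 had 5.94 to 8.17 CPM in mock and 25.4, 13.0 and 8.26 CPM with IAA, and WRKY18, a partner of WRKY40, had 8.94 to 11.7 CPM in mock and 24.1, 9.90 and 9.63 CPM with IAA. These last 2 genes were highest in IAA 1, as were WRKY23 and WRKY27, and WRKY40 was lowest there. None of the 4 was called in edgeR (adjusted p = 0.302, 0.679, 0.191 and 0.609 for WRKY70, WRKY54, WRKY48 and WRKY18).

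Genes whose profile over the 6 libraries lay closest to that of WRKY23 were AT4G11350 (Euclidean distance 0.244 in centred log2(CPM + 0.5)), MLO11 (0.287) and PPI2 (0.288), of 15350 candidates. AT4G11350, for example, had 3.42, 4.20 and 4.42 CPM in mock and 14.0, 9.90 and 7.82 CPM with IAA, in the same order of libraries as WRKY23. The closest to WRKY40 were AT3G04640 (distance 0.195), AT5G19240 (0.222) and AT2G25460 (0.235). AT5G19240 had 36.9, 42.6 and 43.1 CPM in mock and 45.2, 85.6 and 82.1 CPM with IAA, so that IAA 1 was likewise close to mock.

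The gene lists used from here on were chosen with earlier results of these data known. Their counts of calls are therefore a description and no test of the lists. Upstream of WRKY factors lie receptors and MAP kinase cascades. Of 27 tested receptor and MAP kinase genes 2 rose and 0 fell, with a median log2 change of 0.18. The shares over all tested genes were 3.24% higher and 0.991% lower. BAK1, a co-receptor of many receptor kinases, had 122 ± 3.23 CPM in mock and rose 1.33-fold to 163 ± 8.28 CPM (SD, n = 3, adjusted p = 0.0413 in edgeR). MAPKKK5 had 33.1 ± 1.14 CPM in mock and rose 1.34-fold to 44.5 ± 2.86 CPM (adjusted p = 0.0481 in edgeR). Neither was called with the replicate block, with the shoot-marker split as a term, or without any 1 library other than IAA 1. MAPKKK5 was also not called with RLE size factors (adjusted p = 0.0501 in edgeR), library totals (0.0584), no low-count filter (0.0507) or limma-voom (0.0537). VQ proteins bind WRKY domains and modify their activity. Of 21 tested VQ genes 3 rose and 0 fell (median log2 change 0.21), against the same shares of all tested genes. AT3G56880 had 18.8 ± 1.73 CPM in mock and rose 2.17-fold to 40.8 ± 6.59 CPM (adjusted p = 0.00601 in edgeR). AT1G17147 rose 2.12-fold and AT4G20000 1.98-fold (adjusted p = 0.0349 and 0.0289 in edgeR). Both of these lost the call with the shoot-marker split as a term and without mock 1, mock 2, IAA 2 or IAA 3, and AT4G20000 also without mock 3 and with the replicate block.

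Of 11 tested genes reported as targets of the 10, 1 was called higher and 0 lower (median log2 change 0.53). Of all tested genes 3.24% were called higher and 0.991% lower, so a count this small says little about the targets. The called one was ACS6, an ethylene biosynthesis gene bound by WRKY33, which had 8.95 ± 2.09 CPM in mock and rose 4.56-fold to 40.8 ± 4.62 CPM (SD, n = 3, adjusted p = 0.000897 in edgeR). ACS6 was at 40.3, 45.7 and 36.5 CPM in IAA 1 to 3, and WRKY33 at 38.1, 63.6 and 49.1 CPM. The camalexin genes PAD3 and CYP71A13, further targets of WRKY33 named after their values were seen, were at 6.84 to 12.8 CPM in mock against 10.7 to 18.1 CPM with IAA and at 0 counts in all libraries. PHO1, which WRKY6 represses, had 347, 301 and 242 CPM in mock and 225, 210 and 197 CPM with IAA, a log2 difference of -0.49 (SE 0.14, edgeR adjusted p = 0.113, chosen after its value was seen). This was the lowest value of the 11 genes, of which 9 had a positive and 2 a negative change. PHO1 is also among the 10 root cell type markers, and the cause of its difference was not tested. The flavonol gene TT4, tied to WRKY23 and also chosen after its value was seen, had 52.7, 32.5 and 133 CPM in mock and 34.6, 160 and 204 CPM with IAA. Among the IAA libraries it was lowest in IAA 1, where WRKY23 was highest.

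Rapid stress genes, which share many triggers with WRKY33, WRKY40 and WRKY53, gave 5 higher and 0 lower of 20 tested (median log2 change 0.46). Among all tested genes 3.24% were called higher and 0.991% lower. The calmodulin-like gene TCH3 had 34.1 ± 7.08 CPM in mock and rose 7.18-fold to 245 ± 86.0 CPM (SD, n = 3, adjusted p = 0.00486 in edgeR). The ethylene response factor gene ERF6 rose 2.33-fold (adjusted p = 0.000641), the zinc finger gene SZF2 1.66-fold (adjusted p = 0.00662) and NHL10 3.13-fold (adjusted p = 0.0261). TCH3 had 147, 277 and 310 CPM in IAA 1 to 3 and was, like WRKY40, lowest in IAA 1. In the salicylic acid list 4 of 10 tested genes rose and 0 fell (median log2 change 0.53), against the same shares of all tested genes. The rapid stress and salicylic acid lists were chosen with earlier results of these data known, so these counts do not test them. The regulator gene CBP60G, which encodes a calmodulin-binding activator of salicylic acid synthesis, had 0.82 ± 0.145 CPM in mock and rose 15.8-fold to 13.0 ± 3.06 CPM (SD, n = 3, adjusted p = 0.000251 in edgeR). ALD1 rose 9.12-fold (adjusted p = 0.0228), EDS1 1.83-fold (adjusted p = 0.0073) and PAD4 1.60-fold (adjusted p = 0.023). CBP60G, ALD1 and EDS1 were lowest in IAA 1 and highest in IAA 2, as were WRKY15, WRKY51, WRKY33, WRKY40 and WRKY53, while PAD4 was highest in IAA 1. The ALD1 and PAD4 calls were lost without mock 1, mock 2, IAA 2 or IAA 3, the EDS1 call without mock 1 and the NHL10 call with the replicate block or without mock 1, IAA 2 or IAA 3. PAD4 was also not called with the shoot-marker split as a term. The synthesis gene ICS1 (log2 difference -0.62, SE 0.20) was not called, and PR1, the usual marker of the finished response, had 0 counts in all libraries, both named after their values were seen.

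**Figure D4:**
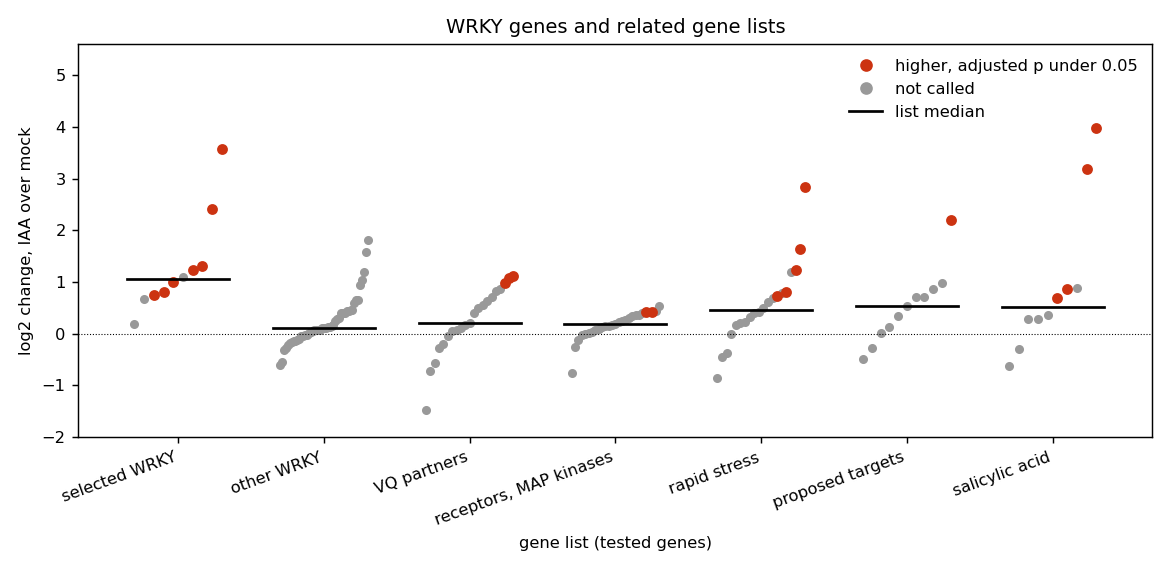
Fitted log2 change (IAA over mock) of each tested gene in the selected WRKY set and the 6 related lists, with genes called higher at an adjusted p under 0.05 in red, genes not called in grey and the list median as a line. The median is 1.05 for the selected WRKY genes, which were picked on this difference, and between 0.10 and 0.53 for the other lists. The other lists were also chosen with earlier results of these data known.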

How the data were processed

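Counts of reads per gene were deposited by the authors as raw whole numbers, 1 column per library, with the 2 technical runs of each library already combined. The build TAIR10 and the tools STAR 2.5.2b, FastQC, SAMtools and DESeq2 1.26.0 are named, per the submitters' processing notes. How reads were counted, on which annotation and with what strand setting is not given in the sources used here. The authors' deposited comparison of 24598 genes holds, per the file headers, a mean normalized signal, a log2 fold change and its standard error, a Wald score, a p-value and an adjusted p-value; DESeq2 1.42.0 run on the counts differed from its log2 values by over 1e-06 for 0 genes.

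The test was edgeR 4.0.16 in R 4.3.3 (quasi-likelihood, robust, TMM, filterByExpr, group as the only term) over 19778 genes, with Benjamini-Hochberg adjusted p under 0.05 over all of them. Standard errors are the absolute log2 change divided by the square root of F. CPM are counts per 1000000 of the TMM-scaled library total. The procedure was tested on simulated data, where it recovered the direction of the changed genes it called and made false calls at a share above the adjusted p threshold. Alternatives were other normalizations, filters, thresholds, DESeq2, limma-voom (limma 3.58.1), the replicate number as a block, each library left out, and, chosen after seeing the data, the shoot-marker split as a term (above or below 0.05% of counts).

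The members, lists and tests were chosen with earlier results of these data known. Named outside the 10 were, by rule, called WRKY genes and the 3 most abundant not called, up to 4 called genes per list by smallest p, GH3.3, and the 3 nearest profiles to WRKY23 and WRKY40 among tested genes with a mean of at least 5 CPM. Positions, symbols and sequences are from RefSeq TAIR10.1, matched by locus tag for all 72 WRKY genes; 27 of 33 VQ loci carry a VQ motif product name there. Replicates of a group differed by more than sampling noise (chi-square per degree of freedom from 15.5 to 48.9).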

Additional observations from a re-analysis of the deposited data

How the results depend on the processing

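Over 14 alternative fits (13 for WRKY30, which the stricter filter drops) the log2 change of WRKY15 lay between 0.72 and 0.79, of WRKY6 between 0.82 and 1.17, of WRKY23 between 1.03 and 1.43, of WRKY51 between 1.97 and 2.69 and of WRKY33 between 0.89 and 1.27. It lay between 0.60 and 0.94 for WRKY27, 1.12 and 1.58 for WRKY31 and 0.51 and 0.94 for WRKY40. The adjusted p was under 0.05 in all 14 fits for WRKY15, 10 for WRKY6, 9 for WRKY51 and 8 for WRKY23. It was so in 7 of 13 fits for WRKY30, in 6 of 14 for WRKY27 and for WRKY31, 2 for WRKY33, 1 for WRKY40 and 0 for WRKY53. Among the 10 genes and the 18 others named by rule, leaving out 1 library turned the sign of 3, none of them called. The log2 change of WRKY53 ranged from -0.019 (without mock 1) to 0.57 (without mock 2), that of WRKY65 from -0.11 (without IAA 1) to 0.093 (without mock 2, and 0.074 without IAA 2) and that of WRKY17 from -0.18 (without IAA 1) to 0.23 (without IAA 3). The cause was not tested.

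With each library left out in turn, 260 to 839 genes were called higher and 47 to 433 lower. The ranges were 0 to 0 higher and lower for the other WRKY genes, 1 to 3 higher and 0 to 1 lower for VQ genes, 0 to 4 higher for receptor and MAP kinase genes, 3 to 7 higher and 0 to 2 lower for rapid stress genes, 1 to 2 higher and 0 to 1 lower for proposed targets and 1 to 4 higher for salicylic acid genes. DESeq2 called 1089 genes higher and 555 lower, 4 other WRKY genes higher, 1 VQ gene lower and 1 proposed target lower. At an adjusted p under 0.01 there were 272 higher and 39 lower, with 1 VQ, 0 receptor and MAP kinase, 3 rapid stress and 2 salicylic acid genes higher. With a minimum of 2-fold there were 381 and 92, with 0 receptor and MAP kinase, 3 rapid stress and 2 salicylic acid genes higher. Receptor and MAP kinase genes gave 1 higher under limma-voom, without the low-count filter, and when scaled by RLE or by library totals. With the shoot-marker split as a term, 1 VQ gene and 0 receptor and MAP kinase genes were higher.

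The replicate number as a block called 462 genes higher and 149 lower, with 0 receptor and MAP kinase, 2 VQ, 4 rapid stress and 4 salicylic acid genes higher. The deviations of same-numbered libraries from their group means correlated at 0.0915, -0.449 and 0.202 over 19778 genes. With 3 libraries per group these values cannot decide whether same-numbered libraries shared a batch, and the labels do not say. WRKY30, with 4 mock counts, is limited by depth.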
